A study of Mus musculus with 9 samples.

Results

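The NRF2-controlled glutathione and redox enzymes are a group of 10 genes that serve the oxidant defence of the cell, followed here in SCCVII, a mouse tumour cell line that arose from an oral squamous cell carcinoma. The members were Nfe2l2, Slc7a11, Gclc, Gclm, Gsr, Abcc1, Txnrd1, Srxn1, Nqo1 and Hmox1, taken by gene symbol in the array annotation. All 10 were found among 18194 genes measured, with 21 probe sets annotated to a single one of them. Expression was measured on Affymetrix arrays in 3 groups of 3 samples each. IR cells came from tumours that the parental cells had formed in stroma irradiated before injection, and the labels call these tumours hypoxic and the lines invasive and metastatic, also once grown with normal oxygen. NIR cells came from tumours of the same parental cells in stroma that had not been irradiated, and the labels call both tumours and lines poorly invasive and metastatic. PA was the parental line itself, kept in standard culture. All groups share the SCCVII origin in mice whose strain the labels write as CH3, and the labels name no engineered allele and no drug. The series' design calls the 9 samples independent, but neither it nor the labels say whether the 3 of a group come from separate tumours, clones or dishes, so p-values measure the spread between these samples, which may be technical. The comparison of IR with NIR asked what an irradiated host tissue left behind in the tumour cells, and the comparisons with PA asked how each derived group differed from its parent.

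NRF2, the protein of Nfe2l2, is a transcription factor that the adaptor KEAP1 marks for degradation in unstressed cells. Oxidants and electrophiles modify KEAP1, NRF2 escapes and pairs with a small MAF protein, and the pair binds antioxidant response elements at its target genes, where the repressor BACH1 competes with it. The targets supply glutathione, keep thioredoxin reduced, and detoxify quinones and haem, and the pathway is often constitutively active in human squamous carcinomas.

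The core of the antioxidant response element, TGACNNNGC on either strand, was searched in the promoters that RefSeq gives for the members (GRCm38.p6, 250 bases before to 50 bases after the start that the promoter table uses, which need not be the outermost end of the gene). Of the 10 genes 6 had a promoter in the table, 8 promoters in all, and 4 of the 8 held the core, against 12.4% of all 32851 promoters. These 4 belonged to Nfe2l2, Gclm, Txnrd1 and Srxn1. The AP-1 motif TGACTCA, which resembles the element, stood in 1 of the 8, that of Srxn1, at 2 places that did not overlap the core, against 5.2% of all promoters. The following 4 promoters are shown because they belong to a glutathione, a thioredoxin and a peroxiredoxin enzyme with the core, and to Nqo1, the member that differed most between groups and whose window held neither motif. Capitals mark the matches, and each promoter is written 5′ to 3′ on the strand of its gene.
Gclm, chr3:122245307-122245606, plus strand: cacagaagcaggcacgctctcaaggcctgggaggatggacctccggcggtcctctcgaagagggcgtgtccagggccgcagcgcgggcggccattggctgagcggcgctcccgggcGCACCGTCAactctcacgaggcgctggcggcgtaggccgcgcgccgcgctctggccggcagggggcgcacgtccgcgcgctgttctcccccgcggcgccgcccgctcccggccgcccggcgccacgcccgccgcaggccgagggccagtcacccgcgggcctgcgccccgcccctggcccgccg
Txnrd1, chr10:82858956-82859255, plus strand: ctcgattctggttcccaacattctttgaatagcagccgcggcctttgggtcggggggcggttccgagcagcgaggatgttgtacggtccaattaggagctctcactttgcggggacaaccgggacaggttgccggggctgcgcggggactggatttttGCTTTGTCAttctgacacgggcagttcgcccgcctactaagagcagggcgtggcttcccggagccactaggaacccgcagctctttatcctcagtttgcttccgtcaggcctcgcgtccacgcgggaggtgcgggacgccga
Srxn1, chr2:152105274-152105573, plus strand: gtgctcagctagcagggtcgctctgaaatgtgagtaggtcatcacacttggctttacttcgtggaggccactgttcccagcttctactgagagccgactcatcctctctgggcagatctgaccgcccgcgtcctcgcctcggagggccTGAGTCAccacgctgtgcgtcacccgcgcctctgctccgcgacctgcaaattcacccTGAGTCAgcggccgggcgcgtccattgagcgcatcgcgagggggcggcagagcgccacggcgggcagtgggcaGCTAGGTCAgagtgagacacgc
Nqo1, chr8:107403156-107403455, minus strand: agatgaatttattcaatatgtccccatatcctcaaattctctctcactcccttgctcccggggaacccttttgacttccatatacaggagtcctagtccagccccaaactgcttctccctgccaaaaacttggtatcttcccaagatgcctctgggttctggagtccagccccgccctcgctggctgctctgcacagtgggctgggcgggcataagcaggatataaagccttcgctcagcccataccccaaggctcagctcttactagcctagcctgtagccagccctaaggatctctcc
In Gclm the core lay 134 to 126 bases before that start and in this Txnrd1 promoter 92 to 84 bases before it, in both on the opposite strand. In Srxn1 the core lay 29 to 37 bases after the start, and the AP-1 matches began 102 and 45 bases before it. A match describes these letters only.

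Levels are given in log2 units after RMA (robust multi-array average), as deposited, and each gene is read by its brightest probe set on average unless another is named. Array medians ranged from 4.45 to 4.52. The SD of the log2 differences between 2 arrays was 0.137 to 0.199 within IR, 0.179 to 0.217 within NIR and 0.149 to 0.188 within PA. Of 12 epithelial and squamous marker genes 8 had means above 4.49, the median of all values. Krt8 and Krt18 were bright, Epcam, Sfn, Pkp1, Krt6a, Krt5 and Krt19 lay above the median on every array, and Trp63, Krt14, Cdh1 and Dsp had means below it. Krt18 was higher in IR than in NIR (0.57 on the log2 scale, adjusted p = 0.0180 by limma) and than in PA (0.55, adjusted p = 0.0146 by limma), and the other 11 were not called in either comparison. Array IR3 stood apart by some macrophage markers, above all Lyz2 and Ctss, and results are given with and without it.

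Lower in IR than in NIR were the quinone reductase gene Nqo1, the export pump gene Abcc1, and Gclc and Gclm. The last 2 are the subunit genes of the enzyme that starts glutathione synthesis. This comparison does not say which of the 2 groups had moved from PA. Nqo1 was 1.71-fold lower in IR, and the other 3 were 1.39-fold to 1.41-fold lower. The remaining 6 members did not pass, but all 10 had negative log2 fold changes, as did 49.5% of all genes. They ran from -0.77 for Nqo1 to -0.097 for Nfe2l2, with a median of -0.36, against 0.0014 over all genes. By limma, with Benjamini-Hochberg adjustment over all genes and a threshold of 0.05, 4 of the 10 members were lower and 0 higher in IR, whereas 0.863% of all genes were called lower, 0.786% higher and 1.65% in either direction. All 3 IR arrays lay below all 3 NIR arrays for 8 of the 10 members, against 9.4% of all genes. Of the 10 members 9 had an unadjusted p under 0.05, all lower in IR, where 8.08% of all genes were lower at that p. The 4 calls used the spread over all 9 arrays, and 0 of the 10 members passed when the 6 IR and NIR arrays were fitted without PA (limma adjusted p = 0.0863 for Nqo1, 0.109 for Abcc1, 0.132 for Gclm and 0.142 for Gclc).

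**Figure D1:**
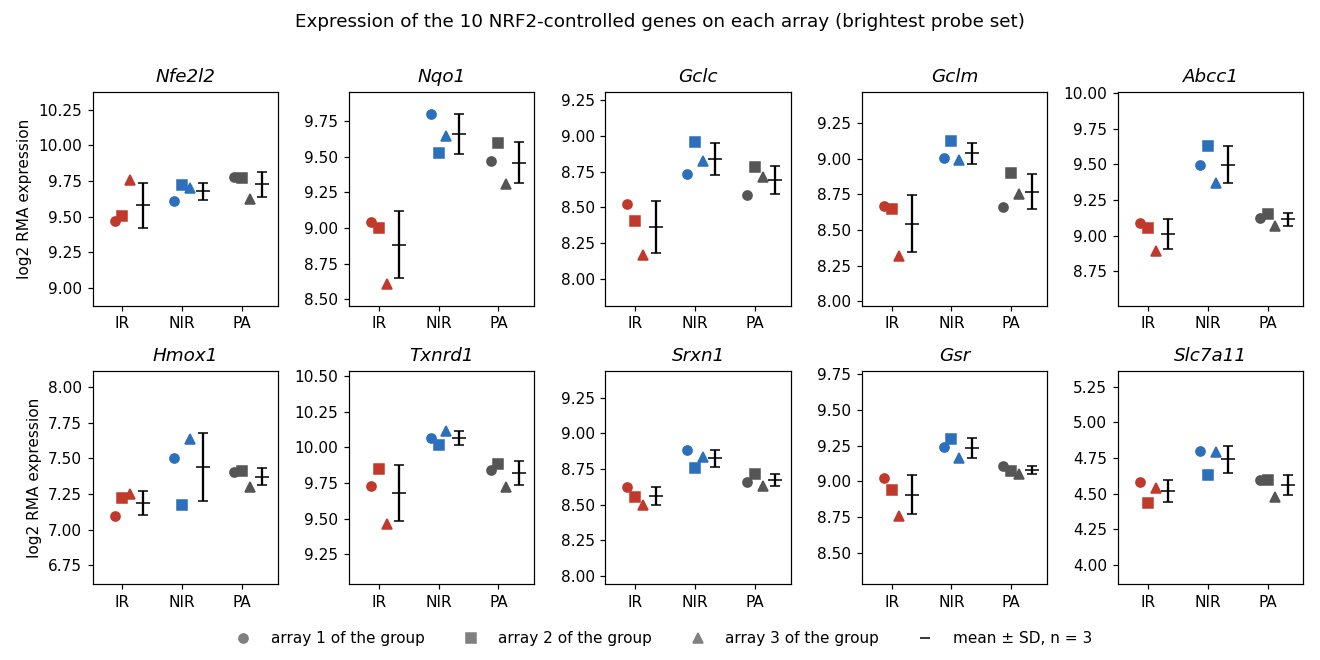
log2 RMA expression (vertical axes, all spanning the same width) of each member on each array, with IR, NIR and PA from left to right, a marker shape per array number, and bars for mean ± SD (n = 3). The IR arrays lie below all NIR arrays in every panel but those of Nfe2l2 and Hmox1.

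Nqo1 encodes a reductase that turns quinones into hydroquinones without free radical intermediates, and it is the classical NRF2 target. Its only probe set (1423627_at, Entrez Gene 18104) read 9.04, 9.00 and 8.61 on the IR arrays, 9.80, 9.52 and 9.64 on the NIR arrays and 9.47, 9.60 and 9.31 on the PA arrays. All IR arrays lay below all NIR and all PA arrays, and IR3 was the lowest of the 9. Nqo1 thus averaged 8.88 ± 0.24 over the IR arrays, 9.66 ± 0.14 over the NIR arrays and 9.46 ± 0.14 over the PA arrays (SD, n = 3 each). The fall in IR against NIR measured -0.77 on the log2 scale (SE 0.12, adjusted p = 0.0154 by limma). It held without any single array except NIR1, whose Nqo1 value was the highest (adjusted p = 0.0501 by limma without it).

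Glutathione synthesis starts with cystine, which the antiporter encoded by Slc7a11 brings into the cell, and continues with glutamate-cysteine ligase, made of the catalytic subunit Gclc and the modifier subunit Gclm. Gclc (1424296_at, Entrez Gene 14629) read 8.52, 8.41 and 8.16 on the IR arrays, 8.74, 8.96 and 8.83 on the NIR arrays and 8.59, 8.78 and 8.71 on the PA arrays. Gclm (1418627_at, Entrez Gene 14630) read 8.67, 8.65 and 8.32 on the IR arrays, 9.01, 9.12 and 8.99 on the NIR arrays and 8.66, 8.90 and 8.75 on the PA arrays. In both genes the IR arrays lay below all NIR arrays. Gclc was also below all PA arrays in IR, while for Gclm array IR1 reached into the PA range. IR minus NIR came to -0.48 for Gclc (SE 0.10, adjusted p = 0.0423 by limma) and -0.49 for Gclm (SE 0.10, adjusted p = 0.0405 by limma). Both calls stood close to the threshold and were lost without any 1 of the 9 arrays. The loss was greatest for Gclc without IR3 (adjusted p = 0.111 by limma) and for Gclm without NIR2 (adjusted p = 0.105 by limma). Slc7a11 (1420413_at, Entrez Gene 26570) read 4.58, 4.43 and 4.54 on the IR arrays, 4.80, 4.63 and 4.79 on the NIR arrays and 4.60, 4.60 and 4.48 on the PA arrays, close to the median of all values. Its IR arrays lay below all NIR arrays, but the difference of -0.22 did not pass (95% interval -0.39 to -0.054, adjusted p = 0.175 by limma).

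Glutathione is kept reduced by glutathione reductase, the product of Gsr, and leaves the cell, alone or joined to toxins and drugs, through pumps such as MRP1, the product of Abcc1. Abcc1 (1452233_at, Entrez Gene 17250) read 9.09, 9.05 and 8.89 on the IR arrays, 9.50, 9.63 and 9.37 on the NIR arrays and 9.13, 9.15 and 9.06 on the PA arrays. The NIR arrays stood above all others, and IR overlapped PA. Abcc1 was lower in IR than in NIR by 0.49 on the log2 scale (SE 0.0844, adjusted p = 0.0202 by limma). The call was lost without IR1, IR2, IR3, NIR1 or NIR2 (adjusted p up to 0.0596 by limma, without IR3). Gsr (1421816_at, Entrez Gene 14782) read 9.02, 8.94 and 8.76 on the IR arrays, 9.24, 9.30 and 9.16 on the NIR arrays and 9.11, 9.07 and 9.05 on the PA arrays. Its arrays fell into 3 ranges that did not overlap, IR lowest and NIR highest, yet the difference of IR from NIR of -0.33 did not pass (95% interval -0.50 to -0.15, adjusted p = 0.0693 by limma).

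The thioredoxin branch was represented by Txnrd1, whose selenoenzyme passes electrons from NADPH to thioredoxin, and Srxn1, whose product repairs peroxiredoxins inactivated by too much peroxide. Txnrd1 (1421529_a_at, Entrez Gene 50493) read 9.73, 9.85 and 9.46 on the IR arrays, 10.07, 10.02 and 10.12 on the NIR arrays and 9.84, 9.89 and 9.72 on the PA arrays. Srxn1 (1426875_s_at, Entrez Gene 76650), read by a probe set of a type that can bind related transcripts, stood at 8.62, 8.56 and 8.50 on the IR arrays, 8.88, 8.76 and 8.83 on the NIR arrays and 8.66, 8.72 and 8.63 on the PA arrays. For both genes the NIR arrays lay above all IR and all PA arrays. Neither passed in IR against NIR, with -0.39 for Txnrd1 (95% interval -0.60 to -0.18, adjusted p = 0.0708 by limma) and -0.27 for Srxn1 (95% interval -0.41 to -0.12, adjusted p = 0.0781 by limma).

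Hmox1 encodes the enzyme that opens haem into biliverdin, carbon monoxide and iron, a target of NRF2 that BACH1 represses strongly. Its probe set (1448239_at, Entrez Gene 15368) read 7.09, 7.22 and 7.25 on the IR arrays, 7.51, 7.18 and 7.64 on the NIR arrays and 7.40, 7.41 and 7.30 on the PA arrays. NIR2 lay within the IR range while NIR1 and NIR3 were the highest of the 9 arrays, so the groups overlapped. The log2 fold change of IR against NIR was -0.25 (95% interval -0.48 to -0.018, adjusted p = 0.274 by limma), and it was -0.38 without NIR2 (adjusted p = 0.0628 by limma).

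Nfe2l2 itself differed least of the 10 between IR and NIR. Its brighter probe set (1416543_at, Entrez Gene 18024) read 9.47, 9.51 and 9.76 on the IR arrays, 9.61, 9.72 and 9.70 on the NIR arrays and 9.78, 9.77 and 9.62 on the PA arrays. IR3 was higher than NIR1, NIR2 and NIR3, so IR and NIR overlapped. In IR against NIR its log2 fold change was -0.097 (95% interval -0.29 to 0.096, adjusted p = 0.666 by limma), in IR against PA -0.15 (95% interval -0.34 to 0.046, adjusted p = 0.723 by limma) and in NIR against PA -0.050 (95% interval -0.24 to 0.14, adjusted p = 0.880 by limma). The transcript is not a measure of the NRF2 protein, whose amount is set largely by degradation.

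In IR against PA no member passed, and the differences were negative again, smaller than those against NIR for every member but Nfe2l2. All 10 log2 fold changes were negative, as were 48.1% over all genes, from -0.57 for Nqo1 to -0.040 for Slc7a11, with a median of -0.16, against 0.0043 over all genes. By limma 0 of 10 members were called, whereas 0.758% of all genes were called lower, 0.297% higher and 1.06% in either direction. At an unadjusted p under 0.05, 3 of 10 were lower, against 4.29% of all genes. Nqo1 came closest (-0.57 on the log2 scale, 95% interval -0.84 to -0.31, adjusted p = 0.0522 by limma), 1.49-fold lower in IR, followed by Gclc (-0.33, 95% interval -0.55 to -0.11, adjusted p = 0.242 by limma). Nqo1 passed in IR against PA under 5 of 10 alternative settings, namely the filter on signal, median centring, trend and robust settings, array weights and the replicate block. The IR arrays lay below all PA arrays for 5 of 10 members, namely Nqo1, Gclc, Hmox1, Srxn1 and Gsr, against 7.43% of all genes.

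In NIR against PA the members tended the other way, again with none called. Of the 10 log2 fold changes 9 were positive and that of Nfe2l2 was negative, where 48.4% of all genes were negative, with a median of 0.17, against 0.0046 over all genes. By limma 0 of 10 were called, whereas 0.379% of all genes were called higher, 0.918% lower and 1.3% in either direction. At an unadjusted p under 0.05, 5 of 10 were higher, against 5.96% of all genes. Abcc1 had the largest difference, 1.30-fold higher in NIR (0.38 on the log2 scale, 95% interval 0.20 to 0.57, adjusted p = 0.0544 by limma), and it passed without IR3 or without NIR3 (adjusted p = 0.0328 and 0.0386 by limma). Gclm (0.27, limma adjusted p = 0.311) and Txnrd1 (0.25, limma adjusted p = 0.318) came next. The NIR arrays lay above all PA arrays for 6 of 10 members, against 7.82% of all genes.

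**Figure D2:**
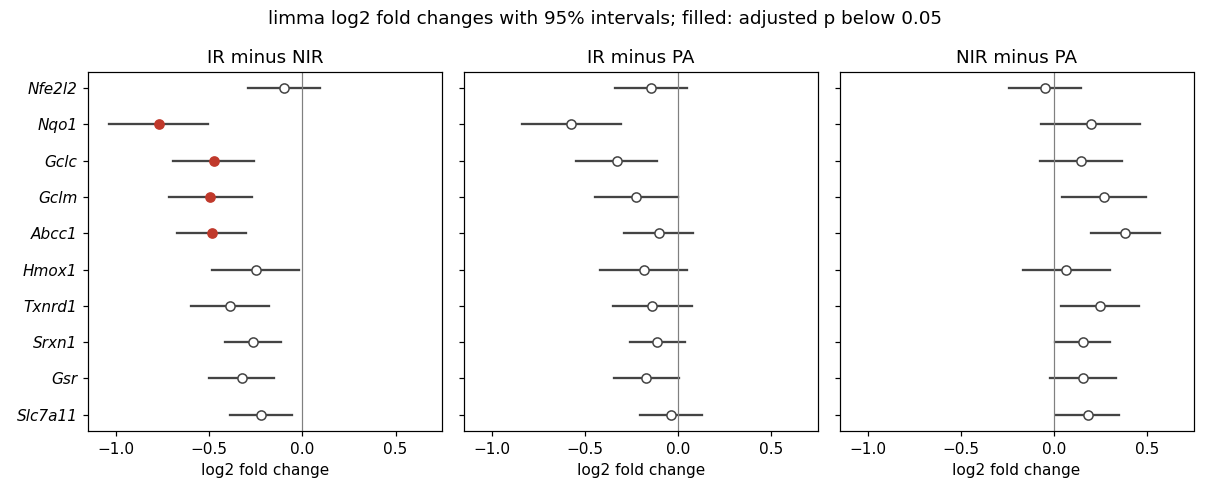
limma log2 fold changes (horizontal axes) of the 10 members in the 3 comparisons, with lines for 95% intervals and filled points for an adjusted p below 0.05. Only Nqo1, Gclc, Gclm and Abcc1 in IR minus NIR are filled, and the points lie left of 0 in IR minus PA and, but for Nfe2l2, right of it in NIR minus PA.

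By group means, 9 of 10 members were lowest in IR, intermediate in PA and highest in NIR, an order that 19.8% of all genes had. For Nfe2l2 the order was IR, NIR and PA. Since the 3 comparisons share their arrays, the order and the fold changes are not independent of each other. PA and NIR did not differ beyond the threshold for any member, nor did IR and PA. In Nqo1, Gclc, Gclm and Abcc1 the extremes of the order could be separated and the neighbours could not.

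Probe sets of the same gene did not all give the same difference. When all 34944 single-gene probe sets were tested on their own, 19 of the 21 member probe sets had a negative log2 fold change in IR against NIR and 3 passed, against 0.481% of all probe sets called lower. The 3 were the probe set of Nqo1 (limma adjusted p = 0.0171) and both probe sets of Abcc1 (-0.49 and -0.43, limma adjusted p = 0.0253 and 0.0489). The other Abcc1 probe set, of a type that can bind related transcripts, read 6.88 on each IR array, 7.12 to 7.47 in NIR and 6.87 to 6.98 in PA. In this larger family the brightest probe sets of Gclc and Gclm missed the threshold (limma adjusted p = 0.0543 and 0.0520). The other Gclc probe set, of that same type, gave only -0.12 (limma adjusted p = 0.615), and the other Gclm probe set gave -0.30 (limma adjusted p = 0.185). Gsr gave nearly the same value in both its probe sets, -0.33 and -0.30 (limma adjusted p = 0.0856 and 0.156). The 3 probe sets of Txnrd1 gave -0.39, -0.31 and -0.25 (limma adjusted p = 0.0869, 0.423 and 0.332). IR overlapped NIR in all of them but the brightest, and the dimmest is named _x_at, a type that can bind related transcripts. Slc7a11 gave -0.22 and, in a probe set below the median of all values, -0.27 (limma adjusted p = 0.211 and 0.354). Of the 4 Srxn1 probe sets 3 gave -0.27, -0.32 and -0.25, while the dimmest of the 4 gave 0.28 (limma adjusted p = 0.369). This dimmest one still lay above the median of all values. It read 5.91 to 6.17 in IR, above all NIR arrays at 5.60 to 5.88, and 5.46 to 5.99 in PA. The second probe set of Nfe2l2, below the median of all values, read 4.55 on IR3 and 3.70 to 3.98 on the other 8 arrays, and gave 0.30 (limma adjusted p = 0.388).

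**Figure D3:**
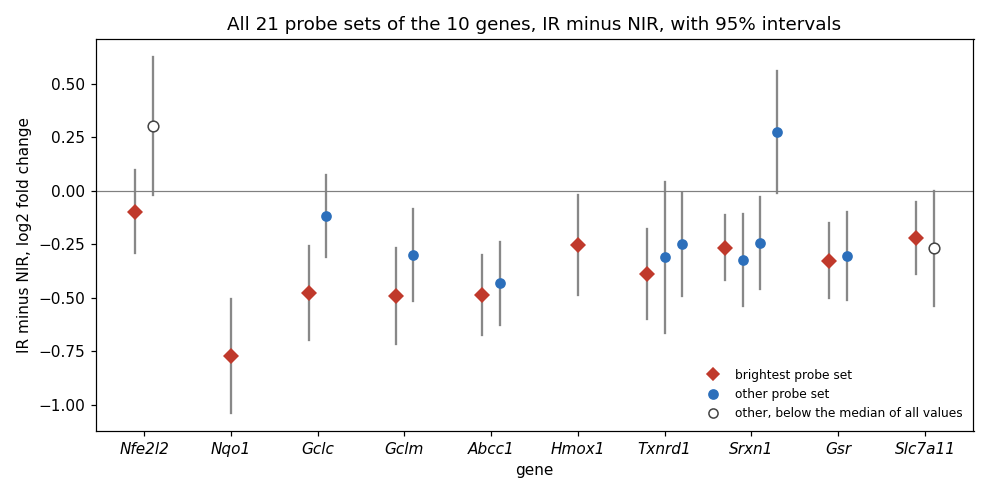
IR minus NIR log2 fold changes (vertical axis) of all 21 probe sets by gene, with 95% intervals. Diamonds are the brightest probe sets, filled circles other probe sets and open circles those below the median of all values. The 2 points above 0 are the dimmest probe sets of Nfe2l2 and Srxn1.

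Among the IR samples, IR3 was the lowest of all 9 arrays for 7 of the 10 members. Averaged over the 10 members, each relative to its mean over the 9 arrays, IR1 stood at -0.13, IR2 at -0.16 and IR3 at -0.29, against 0.17 to 0.20 on the NIR arrays and -0.052 to 0.072 on the PA arrays. IR3 also had the highest mean of 14 macrophage markers, 5.33 against 4.80 on IR1 and 4.82 on IR2, with 4.75 to 4.85 in NIR and 4.52 to 4.64 in PA. Lyz2 read 8.25 and Ctss 6.56 on IR3, against at most 6.32 and 4.88 on any other array, and Cd68 (5.83), Tyrobp (5.39) and C1qa (4.64) were also highest on IR3. Csf1r, Cd14, Fcer1g and Mrc1 were not highest on IR3. Csf1r read 5.50 to 5.91 over all arrays, with IR3 at 5.53. Cd14 read 7.46 on IR3 and 7.80 on NIR1, Fcer1g 5.77 on IR3 and 5.91 on IR2, and Mrc1 5.41 on IR3 and 5.57 on NIR1. Adgre1, Itgam, Ptprc, C1qb and C1qc stayed below 4.49 on every array. Of these, Itgam (3.94) and C1qb (3.79) were highest on IR3, and Adgre1, Ptprc and C1qc were not. Of the 14 markers 8 had a mean above the median of all values, and none was called between IR and NIR. Fibroblast markers averaged 7.11 to 7.22 on the IR arrays, 6.96 to 7.32 on the NIR arrays and 6.76 to 6.92 on the PA arrays, with none called between IR and NIR. In PA, the parental line in culture, Col1a2 (11.28), Col3a1 (11.25), Pdgfra (9.15) and Dcn (7.82) were bright on average. Thy1, Fap and Postn had means below 4.49 in every group. The listed genes thus need not mark fibroblasts in these samples. Against PA the fibroblast marker Dcn was higher in IR (1.24 on the log2 scale, adjusted p = 0.00265 by limma) and in NIR (0.81, adjusted p = 0.0391 by limma). The fibroblast marker Lum (1.29, adjusted p = 0.0241 by limma) and the macrophage marker Mrc1 (0.75, adjusted p = 0.0156 by limma) were higher in NIR than in PA. In such bulk samples fewer expressing cells and less RNA per cell cannot be told apart, and the part of other cells in the members' levels was not tested. Without IR3 all 10 log2 fold changes of IR against NIR were still negative, with a median of -0.28, and Nqo1 alone passed (-0.64, limma adjusted p = 0.0239). Gclc, Gclm and Abcc1 then had -0.38, -0.38 and -0.43 (limma adjusted p = 0.111, 0.0895 and 0.0596). Against PA all 10 were negative without IR3 too, with a median of -0.10.

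**Figure D4:**
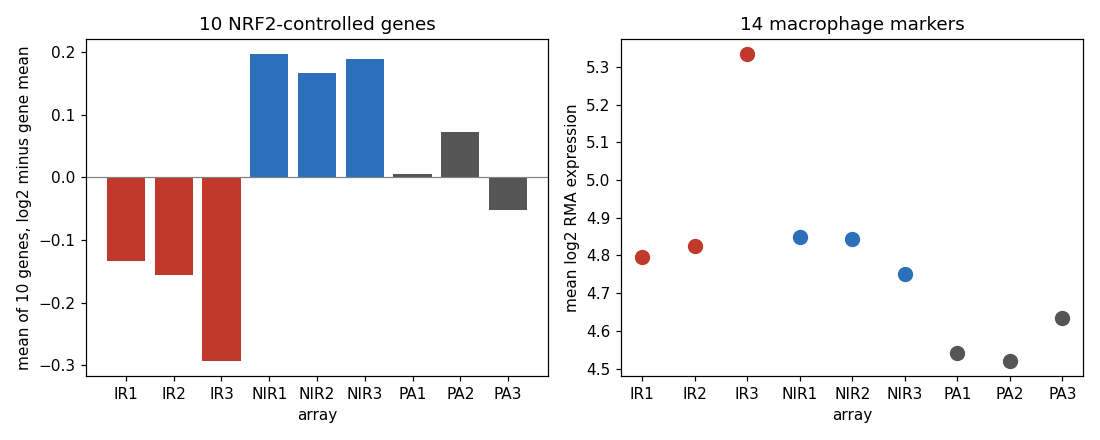
Left, the mean of the 10 members on each array, each gene taken relative to its own mean over the 9 arrays (log2). Right, the mean log2 RMA expression of 14 macrophage markers. IR3 has the lowest bar at -0.29 and the highest marker mean at 5.33, while IR1 and IR2 lie below NIR on the left and within 4.80 to 4.82 on the right.

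Most genes of the wider pathway that could be matched by symbol did not pass in any comparison. Lists of NRF2 regulators, glutathione and thioredoxin enzymes, NADPH supply, haem and iron handling, detoxification and peroxide removal held 98 further genes. Of these 88 were matched to a gene with a single-gene probe set. Ggt1, Prdx1, Prdx5, Prdx6, G6pdx, Ftl1, Akr1b3, Akr1b7, Ugt1a6a and Esd were not matched and not examined. In IR against NIR 1 of the 88 fell, 2 rose and 85 did not pass, with a median log2 fold change of -0.026, beside 0.863% of all genes called lower, a share near that of the lists, and 0.786% called higher. The gene that fell was Mafg, which encodes a small MAF partner of NRF2 and is itself an NRF2 target. Mafg read 8.01, 7.95 and 7.95 on the IR arrays, 8.43, 8.48 and 8.20 on the NIR arrays and 8.23, 8.28 and 8.19 on the PA arrays, IR below all others (-0.41 on the log2 scale, adjusted p = 0.0350 by limma), and lost its call without any array but NIR3 (adjusted p up to 0.0934 by limma, without IR2). The genes that rose were Cat, the catalase that breaks down hydrogen peroxide, and Aox1, an aldehyde oxidase. Cat read 8.46, 8.42 and 8.50 on the IR arrays, 7.93, 8.01 and 8.10 on the NIR arrays and 8.23, 8.20 and 7.93 on the PA arrays (0.44 on the log2 scale, adjusted p = 0.0365 by limma), and its call held only without NIR3 or PA3 (adjusted p up to 0.0983 by limma, without NIR1). Aox1 read 5.72, 5.60 and 5.84 on the IR arrays, 4.96, 5.32 and 5.17 on the NIR arrays and 5.55, 5.71 and 5.60 on the PA arrays (0.57 on the log2 scale, adjusted p = 0.0207 by limma), and its call was lost without IR1, IR3 or NIR1 (adjusted p up to 0.0695 by limma, without IR1).

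In IR against PA 4 of the 88 fell, 0 rose and 84 did not pass, beside 0.758% of all genes called lower and 0.297% called higher. The KEAP1 gene, Keap1, read 7.45, 7.44 and 7.41 on the IR arrays, 7.51, 7.59 and 7.59 on the NIR arrays and 7.75, 7.77 and 7.82 on the PA arrays. IR lay below NIR and NIR below PA, and the fall in IR against PA passed (-0.35 on the log2 scale, adjusted p = 0.0235 by limma) but was lost without any IR or any PA array (adjusted p up to 0.102 by limma, without PA2). Between IR and NIR Keap1 gave -0.13 (adjusted p = 0.357 by limma). Aldh3a1, an aldehyde dehydrogenase, had the largest fall of the 4, -1.44 (adjusted p = 0.000579 by limma), with 5.07, 5.33 and 5.12 in IR and 6.50, 6.91 and 6.42 in PA. Gpx1, a glutathione peroxidase, fell by 0.55 (adjusted p = 0.0199 by limma), a call lost without any IR array, PA1 or PA2 (adjusted p up to 0.122 by limma, without PA2), and Aldh3a2, another aldehyde dehydrogenase, fell by 0.42 (adjusted p = 0.0461 by limma), a call lost without IR1, IR2, NIR1, NIR3, PA1 or PA2 (adjusted p up to 0.233 by limma, without PA2).

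In NIR against PA 5 of the 88 fell, 0 rose and 83 did not pass, beside 0.918% of all genes called lower and 0.379% called higher. They were Aldh3a1 (-1.06, limma adjusted p = 0.00394), Idh1, an isocitrate dehydrogenase that makes NADPH (-0.60, limma adjusted p = 0.00219), the quinone reductase Nqo2 (-0.47, limma adjusted p = 0.00678), the epoxide hydrolase Ephx1 (-0.48, limma adjusted p = 0.0209) and Aox1 (-0.47, limma adjusted p = 0.0452). Aldh3a1 and Idh1 kept their calls without any single array. Nqo2 lost its call without PA1 (adjusted p = 0.0503 by limma), Ephx1 without NIR3 or any PA array (adjusted p up to 0.111 by limma, without PA3), and Aox1 without any array but IR3 and NIR2 (adjusted p up to 0.192 by limma, without PA2). The repressor gene Bach1, the Slc7a11 partner Slc3a2 and the thioredoxin gene Txn1 did not pass in any comparison, and in IR against NIR they gave 0.29, -0.048 and -0.042 (adjusted p = 0.296, 0.888 and 0.821 by limma).

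**Figure D5:**
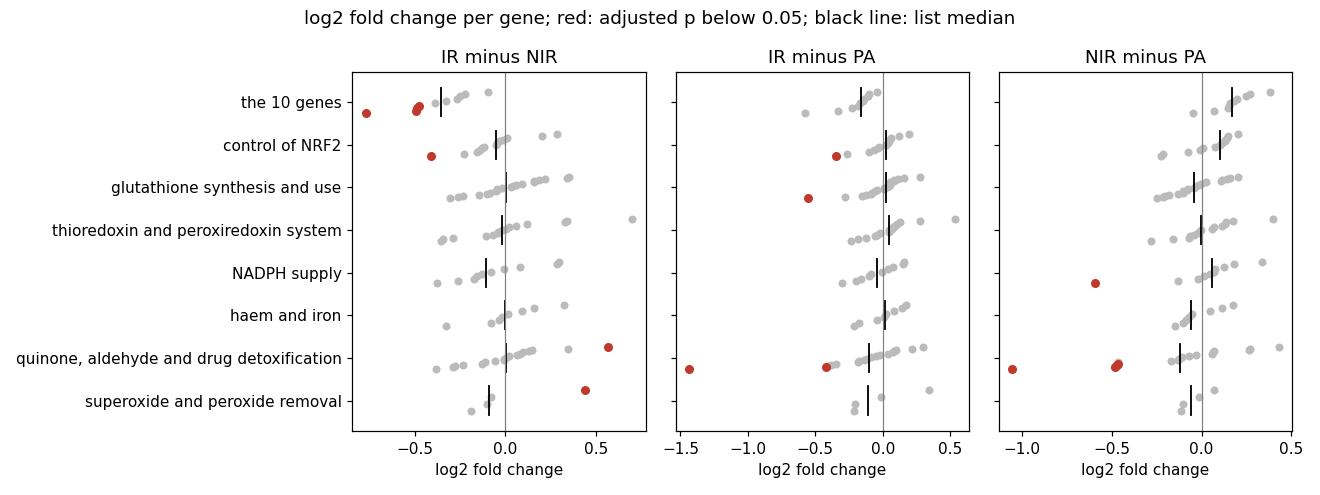
log2 fold changes (horizontal axes) of the 10 members, in the top row, and of the genes of 7 pathway lists, in the 3 comparisons, with a point per gene, red for an adjusted p below 0.05 and a black line for the median. In IR minus NIR the median of the 10 members is -0.36 and that of the 88 listed genes -0.026.

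The genes whose profile lay closest to that of Nqo1 were sought among 11830 other genes with a mean above the median of all values, by the root mean square difference of log2 values centred on each gene's mean over the 9 arrays. The closest were Naa16, a subunit of a protein acetyltransferase (0.11), the elongation factor partner Eaf1 (0.12), the chemokine gene Ccl5 (0.15), Vcan, which encodes the matrix proteoglycan versican (0.15), and Bysl, a ribosome assembly factor (0.16). Vcan, for example, averaged 8.45 in IR, 9.16 in NIR and 8.84 in PA. Of the members themselves Gclm and Gclc were nearest to Nqo1, both at 0.19, followed by Txnrd1 at 0.21, and Nfe2l2 was the farthest at 0.35. Ranked against the 11830 other genes, Gclm stood at place 33, Gclc at 40, Txnrd1 at 82 and Nfe2l2 at 3702. By this measure many genes outside the group thus lay nearer to Nqo1 than any member did. The measure counts the size of the differences as well as their pattern. Nqo1 had an SD of 0.38 over the 9 arrays, and the other members had 0.12 to 0.25. The ranks therefore cannot tell a smaller change of the same pattern from a different pattern.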

How the data were processed

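RNA from 9 SCCVII samples, purified with a Qiagen RNeasy kit and labelled with biotin per the labels' protocols, was hybridised to Affymetrix mouse arrays. The deposited values are log2 expression values made with RMA per the submitters' processing notes, whose version and settings are not given in the sources used here. They were used unscaled. Of 45100 probe sets 34944 named a single gene, 932 named several and 9160 named none, and 64 were controls. Symbols were updated by Entrez identifier against RefSeq (GRCm38.p6), which matched 34740. The brightest probe set stood for each of 18194 genes. The 3 group means were fitted to all 9 arrays together (limma 3.58.1, R 4.3.3, moderated 2-sided tests with 6 residual and 5.48 prior degrees of freedom), with Benjamini-Hochberg adjustment of the p-values over all genes, with a threshold of 0.05. The procedure was tested on simulated data. There a true log2 difference of 0.5 was called in 53 of 67 genes in IR against NIR. In IR against PA it was called in 51 of 67. Differences of 1 and 2 were called in all 67 genes in both comparisons. False calls were 8 of 195 in IR against NIR and 13 of 198 in IR against PA. Differences between 0 and 0.5 were not simulated, so how often they would be missed was not tested. The number of arrays limits the precision.

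The members, lists and tests were chosen with earlier results of these data known. Genes named beyond the members were the listed genes called in a comparison, 4 regulators and partners, and the 5 genes closest to Nqo1; the markers named by cell type were chosen after their values were seen. Alternative settings averaged each gene's probe sets, dropped those named _x_at or _s_at, tested all probe sets singly, filtered on signal, centred arrays on their median, repeated the quantile step, let the prior variance follow intensity (trend and robust), weighted arrays, fitted only the 2 groups compared, added the replicate number as a term, lowered the threshold to 0.01, and left out each array in turn. Figures were drawn with matplotlib 3.10.9.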

Additional observations from a re-analysis of the deposited data

How the results depend on the processing

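Over 10 alternatives other than single arrays and single probe sets, the 10 members gave 100 values per comparison, of which 87 in IR against NIR, 94 in IR against PA and 95 in NIR against PA kept their direction and their side of the threshold. In IR against NIR 4 members were called in the main analysis, 0 with the compared groups alone or at a threshold of 0.01, 2 with every probe set tested, and 0 to 2 without a single array; the compared groups alone leave 6 arrays to estimate the spread. In IR against PA 1 member, Nqo1, was called with the filter on signal, median centring, trend and robust settings, array weights or the replicate block, and 0 without any single array. In NIR against PA 1 member, Abcc1, was called with the mean of probe sets, the filter on signal, trend and robust settings, array weights or the replicate block, and 0 to 1 without a single array. The count over all genes in IR against NIR was 300, and 11 with the compared groups alone, 41 at a threshold of 0.01 and 77 to 271 without a single array. It was 192 in IR against PA, with 467 under array weights, 100 at a threshold of 0.01 and 99 to 214 without a single array, and 236 in NIR against PA, with 382, 108 and 121 to 370. Txnrd1 passed in IR against NIR with trend and robust settings (limma adjusted p = 0.0492). These counts over all genes moved by over 1.5 times without any array but NIR3 in IR against NIR, without IR1, IR2 or any PA array in IR against PA, and without IR3 or any PA array in NIR against PA. The cause of these shifts was not tested.

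The replicate block, which takes the replicate number of the titles as a term, gave 3 called members in IR against NIR (Gclc was lost, limma adjusted p = 0.0554). Deviations from the group means, taken over genes, had correlations of -0.20 to 0.097 between same-numbered arrays of different groups. Between differently numbered arrays the correlations were -0.12 to 0.25. Deviations from a mean of 3 arrays depend on each other, so these values cannot decide whether the numbers pair the samples. Values that changed sign were all uncalled. With the mean of probe sets Nfe2l2 gave 0.10 in IR against NIR and 0.059 in IR against PA, Bach1 gave -0.11 in IR against PA and Txn1 0.12 in NIR against PA. With array weights Bach1 gave -0.042 and Txn1 0.0010, and with a second quantile normalization Txn1 gave 0.00082. With single probe sets Nfe2l2 gave 0.30 in IR against NIR and 0.27 in IR against PA, Srxn1 0.28, 0.27 and -0.0057 in the 3 comparisons, Gclm 0.065 in IR against PA and Gclc -0.13 in NIR against PA. Without single arrays Slc7a11 ranged from -0.080 to 0.0042 and Bach1 from -0.047 to 0.14 in IR against PA, Hmox1 from -0.031 to 0.20 and Txn1 from -0.015 to 0.0065 in NIR against PA, and Ephx1 from -0.010 to 0.14 and Slc3a2 from -0.12 to 0.087 in IR against NIR.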
